A study of Mus musculus with 4 samples.

Results

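Otx2 and 4 other transcription and signalling genes of the anterior epiblast (Otx1, Pou3f1, Zic2 and Fgf5) were followed in mouse embryonic stem cells exposed to retinoic acid. The set was chosen by the fall of Otx2 in the same arrays, and the other 4 genes were added as epiblast factors in which a like fall could be looked for. Every probe whose platform annotation gives 1 of these symbols was taken, which gave 6 probes for the 5 genes: 2 for Zic2 and 1 for each of the others. The annotation names 19057 genes in all. Because this contrast chose the set, the changes of the members are given as a description with intervals and without p-values.

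The samples were RNA from E14 cells, an established line of mouse embryonic stem cells, grown in medium with serum and LIF, the cytokine that keeps such cells pluripotent. For 2 hours the cells received either all-trans retinoic acid (ATRA), which binds and activates the retinoic acid receptors, or DMSO, the solvent in which it was given. Each group had 2 single-colour Illumina bead arrays with 45281 probes. All 4 arrays share the line and the medium, and the labels do not say whether the replicates came from separate cultures, so the spread between them may be technical. The labels do not state the dose of ATRA, and 1 sample field calls the DMSO arrays untreated. Sample titles give wt for the DMSO arrays and ATRA for the others.

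Otx2 and Otx1 encode homeodomain proteins related to the fly orthodenticle protein. In the mouse embryo Otx2 is made in the epiblast, is needed for the head to form and later becomes restricted to the forebrain and midbrain. In stem cell cultures it takes part in the step from naive to formative pluripotency together with Pou3f1 (also called Oct6), a POU domain factor, Zic2, a zinc finger factor, and Fgf5, a secreted growth factor that is a classic marker of the post-implantation epiblast. Retinoic acid is a posteriorizing signal in the embryo, and excess retinoic acid is known to reduce Otx2 in the anterior neural plate.

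Otx2 had deposited intensities of 206 and 192 on the ATRA arrays, against 494 and 521 on the DMSO arrays, all with a detection p-value of 0. A detection p-value states how often a negative control bead is as bright as the probe, and a probe is called detected here when it is under 0.05. After background correction and on the log2 scale the values were 7.00 and 6.84 with ATRA, against 8.70 and 8.79 with DMSO. Both ATRA arrays lay far below both DMSO arrays, and the gap was many times the spread within a group. The group means were 6.92 ± 0.11 with ATRA and 8.75 ± 0.06 with DMSO (SD, n = 2), a change of -1.83 (SE 0.10). This made Otx2 3.55-fold lower in ATRA cells, with a 95% interval of 3.07 to 4.11. In these bulk samples fewer cells that express Otx2 and less Otx2 RNA per cell cannot be told apart.

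The size of the fall depends on how much background is taken off. The ratio of mean deposited intensities, DMSO over ATRA, was 2.55 with no background taken off. In the authors' other table, which has a constant subtracted, the fall was 3.94-fold with a floor of 16, and with an offset of 50 in place of 16 it was 2.99-fold. The ATRA signal of Otx2 stayed above the detection limit of 106 and 105 on its 2 arrays, so Otx2 RNA was still measured after 2 hours of ATRA. Over the 19112 probes kept for testing (detected on at least 2 of the 4 arrays), Otx2 had the largest fall, followed by Id2 at -0.91 and Sox21 at -0.73. With the offset of 16 Otx2 was also the only kept probe that fell by 2-fold or more. In the authors' other table Id2 and the homeobox gene Evx1 were past 2-fold too, at -1.06 and -1.01. Only the genes named here were looked up in that table, so other probes may also be past 2-fold there. Otx2 had the lowest change under each of the 11 other settings tried.

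**Figure D1:**
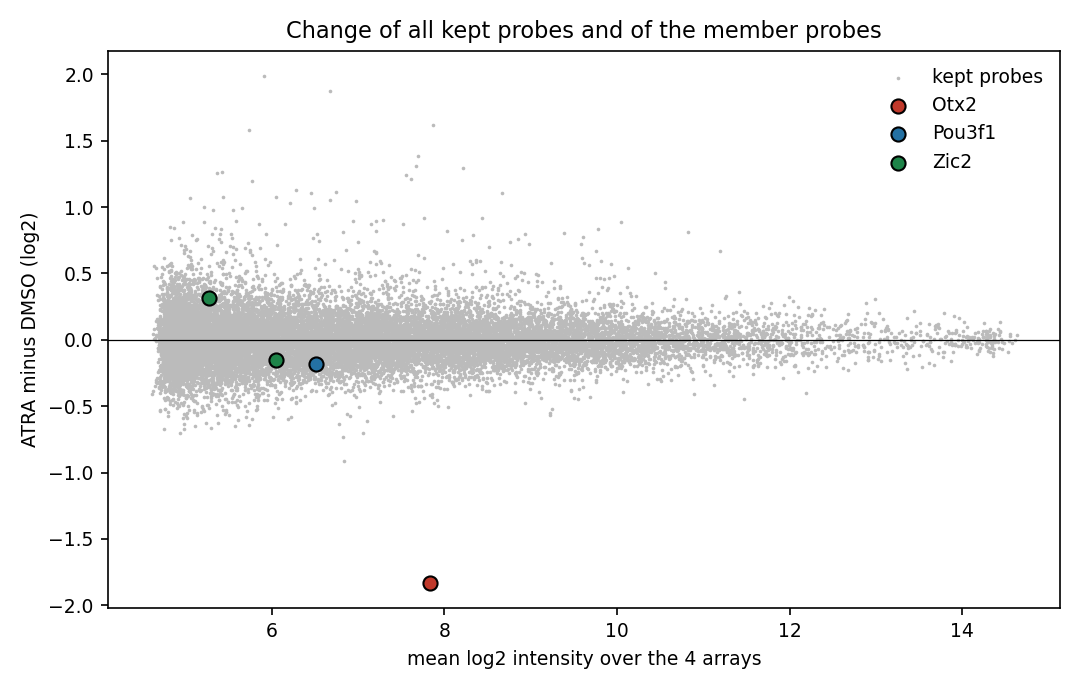
Mean log2 intensity over the 4 arrays (x axis) against the change, ATRA minus DMSO, on the log2 scale (y axis) for the 19112 kept probes in grey and the 4 kept member probes in colour. Otx2 at -1.83 lies below every other probe, while Pou3f1 at -0.18 and the Zic2 probes at -0.15 and 0.31 lie inside the grey cloud.

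The set of RefSeq promoters (GRCm38.p6) used here holds Otx2, with 4 start sites, and Fgf5. It does not hold Otx1, Pou3f1 or Zic2, so their promoters were not searched. The 250 bases before each start were searched on both strands. The motifs were the hexamers AGGTCA or AGTTCA or GGGTCA or GGTTCA, which are half-sites of retinoic acid receptors, any pair of these hexamers in direct repeat spaced by 1, 2 or 5 bases, TAATCC, the core bound by OTX homeodomains, and ATGCAAAT, the POU octamer. The windows of Otx2 start sites 1 and 3, numbered from the 5′ end, are shown because each holds 1 match, in capitals; the other 2 windows hold none of these letters. The window of start site 1 is chr14:48667645-48667894 and the other is chr14:48665110-48665359, both read 5′ to 3′ on the minus strand and ending at the base before the start.
Otx2 start site 1: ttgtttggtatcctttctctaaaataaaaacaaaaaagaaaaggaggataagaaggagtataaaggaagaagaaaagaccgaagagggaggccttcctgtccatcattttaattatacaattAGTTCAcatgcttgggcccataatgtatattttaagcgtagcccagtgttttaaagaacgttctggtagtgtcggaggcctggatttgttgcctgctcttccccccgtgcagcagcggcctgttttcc
Otx2 start site 3: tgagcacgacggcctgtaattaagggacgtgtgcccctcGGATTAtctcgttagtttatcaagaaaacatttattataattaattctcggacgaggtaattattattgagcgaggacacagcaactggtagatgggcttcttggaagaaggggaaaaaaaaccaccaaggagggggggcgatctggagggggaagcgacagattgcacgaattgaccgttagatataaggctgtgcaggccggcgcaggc

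In the window of start site 1 the capitals mark AGTTCA, whose first base lies 128 bases before the start. In the other window they mark TAATCC on the opposite strand, 211 bases before the start. No repeat of half-sites is in any of the 4 Otx2 windows. A half-site of any of these forms is in 38.6% of the 32851 promoter windows of this length, and AGTTCA alone in 11.8%, so single matches are common. TAATCC is in 6.25%, ATGCAAAT in 1.6%, and repeats spaced by 1, 2 and 5 bases in 0.164%, 0.174% and 0.0883%. The Fgf5 window holds 1 GGGTCA on the opposite strand, 174 bases before the start. The matches describe letters in these windows and say nothing of binding, and the files do not show which start site the E14 cells use.

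Otx1, the paralog of Otx2, was not detected. Its intensities were 106 and 98.2 with ATRA, against 95.7 and 99.3 with DMSO, with detection p-values of 0.056 and 0.181 with ATRA and of 0.284 and 0.147 with DMSO. The first ATRA array came close to the detection limit, and the second lay between the 2 DMSO arrays. No fold is given, since all 4 values are at background.

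Pou3f1 was detected on all 4 arrays, at intensities of 167 and 160 with ATRA, against 168 and 183 with DMSO. On the log2 scale these were 6.48 and 6.37 with ATRA, against 6.49 and 6.72 with DMSO. The ATRA values lay below the DMSO values, but the nearest 2 were almost level. The change was -0.18 (SE 0.12), with a 95% interval of -0.43 to 0.07, which runs from 1.35-fold lower to 1.05-fold higher in ATRA cells. The interval holds no fall near that of Otx2.

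Zic2 was read by 2 probes, 1 annotated to the RefSeq transcript and 1 to a cDNA clone. The brighter, RefSeq probe gave log2 values of 6.12 and 5.81 with ATRA, against 6.17 and 6.08 with DMSO. The groups overlapped, and the change of -0.15 (95% interval -0.43 to 0.13) came from the second ATRA array, without which it was 0.001. The dimmer probe gave 5.56 and 5.31 with ATRA, against 5.03 and 5.21 with DMSO, with both ATRA arrays higher. Its change was 0.31 (95% interval -0.02 to 0.65). The 2 Zic2 probes thus pointed in opposite directions, and both intervals include 0.

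Fgf5 was at background throughout, with intensities of 93.7 and 93.6 on the ATRA arrays and 95.2 and 92.1 on the DMSO arrays. Its detection p-values were 0.403 and 0.394 with ATRA and 0.313 and 0.526 with DMSO. The ATRA values fell between the DMSO values. A change in a transcript below the detection limit could not be seen on these arrays.

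**Figure D2:**
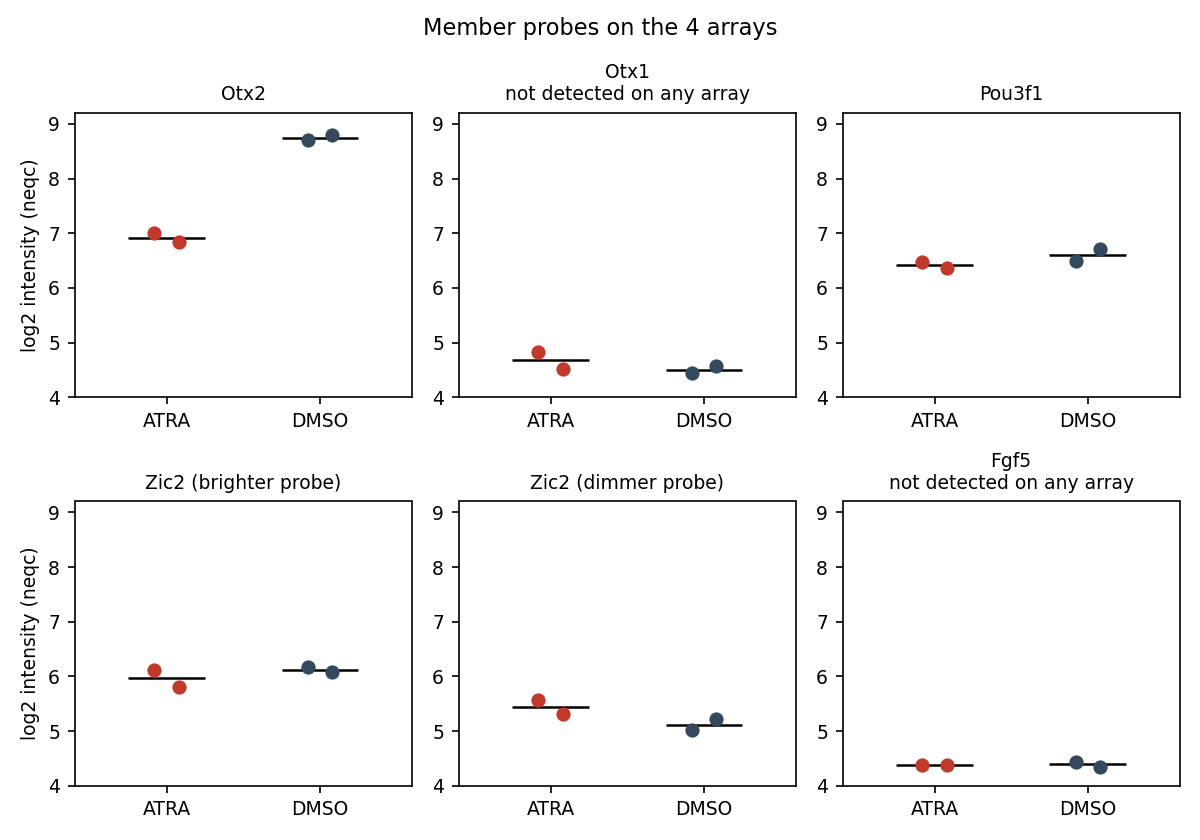
Log2 intensity after background correction (y axis) of the 6 member probes, with 1 point for each of the 2 ATRA arrays (left) and the 2 DMSO arrays (right) and a line at each group mean. Otx2 separates at 6.92 against 8.75, while Pou3f1 and the Zic2 probes differ by 0.31 or less and Otx1 and Fgf5 stay near the floor.

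In all, 4 of the 6 member probes were kept for testing, covering 3 of the 5 genes. Of these, 1 was past the threshold of limma at an adjusted p of 0.05, the Otx2 probe, among kept probes of which 1.58% passed in either direction and 0.324% passed with a lower value. Both groups were fully apart on 3 of the 4 kept probes (Otx2 and Pou3f1 lower, the dimmer Zic2 probe higher), as they were on 40.8% of all kept probes. Nothing is read from these counts, as the contrast chose the set. A fall like that of Otx2 was not seen in Pou3f1 or Zic2, and it could not be measured in Otx1 or Fgf5.

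That the cells had responded to ATRA was checked on known target genes. Cyp26a1, which encodes an enzyme that breaks down retinoic acid, had log2 means of 6.91 ± 0.11 with ATRA and 4.92 ± 0.20 with DMSO (SD, n = 2), and rose 3.97-fold (limma adjusted p = 2.59e-09). Cdx1, a caudal homeobox gene, rose 1.83-fold (adjusted p = 0.000828), and its dimmer probe rose by 1.58 on the log2 scale (adjusted p = 6.73e-08). Without the intensity trend in limma the brighter probe had an adjusted p of 0.0904. The other 3 kept genes of this list had higher values without passing. Rarb, a retinoic acid receptor, was detected with ATRA alone and stood at least 1.10-fold higher there (adjusted p = 0.194). The homeobox gene Meis1 and the retinoic acid carrier gene Crabp2 were each at 0.15 on the log2 scale (adjusted p = 0.780 and 0.763). Hoxb1, Stra8, Dhrs3 and Stra6 were undetected on all 4 arrays.

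The same question was put to 24 other genes of the formative and primed epiblast. Of these, 23 had a named probe and 18 were kept; 3 rose and 0 fell, against 1.82% of all 10194 genes that passed in either direction. The median change of the 18 was -0.02, beside -0.01 for all kept probes. Tead2, a transcriptional partner of YAP, rose 1.40-fold (log2 means 10.20 ± 0.14 with ATRA and 9.72 ± 0.07 with DMSO, n = 2; limma adjusted p = 0.00265). Nodal, the TGF-beta family ligand of the epiblast, rose 1.28-fold (adjusted p = 0.0209), and its dimmer probe was higher by 0.29 (adjusted p = 0.165). Wnt8a, a WNT ligand of the posterior epiblast, was detected on the ATRA arrays alone and stood at least 1.43-fold higher there (adjusted p = 0.0393); its dimmer probe, also undetected with DMSO, was at least 1.41-fold higher (adjusted p = 0.0108). The bound sets the ATRA mean against the lowest detected signal of the DMSO arrays or the probe's own value, whichever is higher. Wnt8a was kept only through the ATRA arrays, where it is higher, so its pass is tied to the filter. With no filter on dim probes its limma adjusted p was 0.1, and 2 epiblast genes passed. With only probes detected on all 4 arrays the number was also 2.

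The 3 epiblast genes that came nearest to a fall were Grhl2, an epithelial transcription factor, at -0.45, the FGF ligand gene Fgf15 at -0.43 and Sox4 at -0.33 (adjusted p = 0.0688, 0.116 and 0.101 by limma). In each of the 3 both ATRA arrays were below both DMSO arrays, as on 21.2% of all kept probes. By their brightest probes the others lay between -0.22 and 0.27. Among them Dnmt3b, a DNA methyltransferase that is high in the primed state, was at -0.005 (95% interval -0.17 to 0.16). Its dimmer probe was lower, at -0.27 (95% interval -0.51 to -0.03, limma adjusted p = 0.349). Hes6 was at -0.17 by its brightest probe and at -0.43 and -0.10 by its 2 dimmer probes (limma adjusted p = 0.570, 0.157 and 0.834). Dnmt3a, Sox3, Zic5 and Foxd3 were undetected on all 4 arrays by each of their probes, and no Fgf8 probe was detected on more than 1.

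The calls changed when 1 array was left out; the array left alone in its group is then assumed to vary like the other group. Without ATRA replicate 2 the number of epiblast genes past the threshold was 0, with Tead2 at 0.38 (adjusted p = 0.162) and Nodal at 0.38 (adjusted p = 0.156), and without ATRA replicate 1 it was 1, with Nodal at 0.33 (adjusted p = 0.337). Wnt8a could not be kept without either ATRA replicate, since it was detected on the ATRA arrays alone. Its change was 0.56 without DMSO replicate 2. Without DMSO replicate 1 Grhl2 passed at -0.56 (adjusted p = 0.0107), and without DMSO replicate 2 Fgf15 passed at -0.47 (adjusted p = 0.0389), while without ATRA replicate 2 it was at -0.26 (adjusted p = 0.903). Without the intensity trend 0 of the 18 passed.

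Of 15 genes of the head organizer and the anterior neural plate, 14 had a named probe and 13 were undetected on every array: Six3, Hesx1, Lhx1, Lhx5, Rax, Sox1, Pax6, Emx2, Gsc, Cer1, Dkk1, Foxa2 and Fzd8. The anterior genes that accompany Otx2 in the embryo were thus below what these arrays detect, with 1 exception. The gene kept was Shisa2, an antagonist of WNT and FGF receptors (known from frog and mouse embryos). It had log2 means of 7.12 ± 0.09 with ATRA and 7.70 ± 0.03 with DMSO (n = 2), and fell 1.49-fold (limma adjusted p = 0.00251). Its dimmer probe was undetected with ATRA and at least 1.06-fold lower (adjusted p = 0.686). Without ATRA replicate 1 the adjusted p of Shisa2 was 0.0854, with a change of -0.51, and without the intensity trend it was 0.0872.

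At the midbrain-hindbrain boundary Otx2 and Gbx2 are known to repress each other, so genes of that region were read beside Otx2. All 5 kept genes of 11 had lower values with ATRA, and 0 passed the threshold over all probes, with a median of -0.24. On the brightest probe of each of the 5 both ATRA arrays were below both DMSO arrays, as on 21.2% of all kept probes. The dimmer probes of Fgf17 and Irx2 were also apart, at -0.23 and -0.43. On the dimmer probe of En1 the groups overlapped, with a change of -0.16 (limma adjusted p = 0.813). Gbx2, which is also expressed in naive stem cells, had log2 means of 10.75 ± 0.003 with ATRA and 10.99 ± 0.11 with DMSO (n = 2), a change of -0.24 (limma adjusted p = 0.166). It was thus not higher where Otx2 was lower. Without DMSO replicate 2 Gbx2 passed at -0.32 (adjusted p = 0.00948). The homeobox genes En1 and Irx2 were at -0.44 and -0.26 (adjusted p = 0.0963 and 0.549), with Irx2 at -0.11 and -0.41 without DMSO replicates 1 and 2, and En2 and the ligand gene Fgf17 at -0.24 and -0.19. Gbx1, Pax2, Pax5 and Wnt1 were undetected on all 4 arrays, and no Fgf8 or Lmx1b probe was detected on more than 1.

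**Figure D3:**
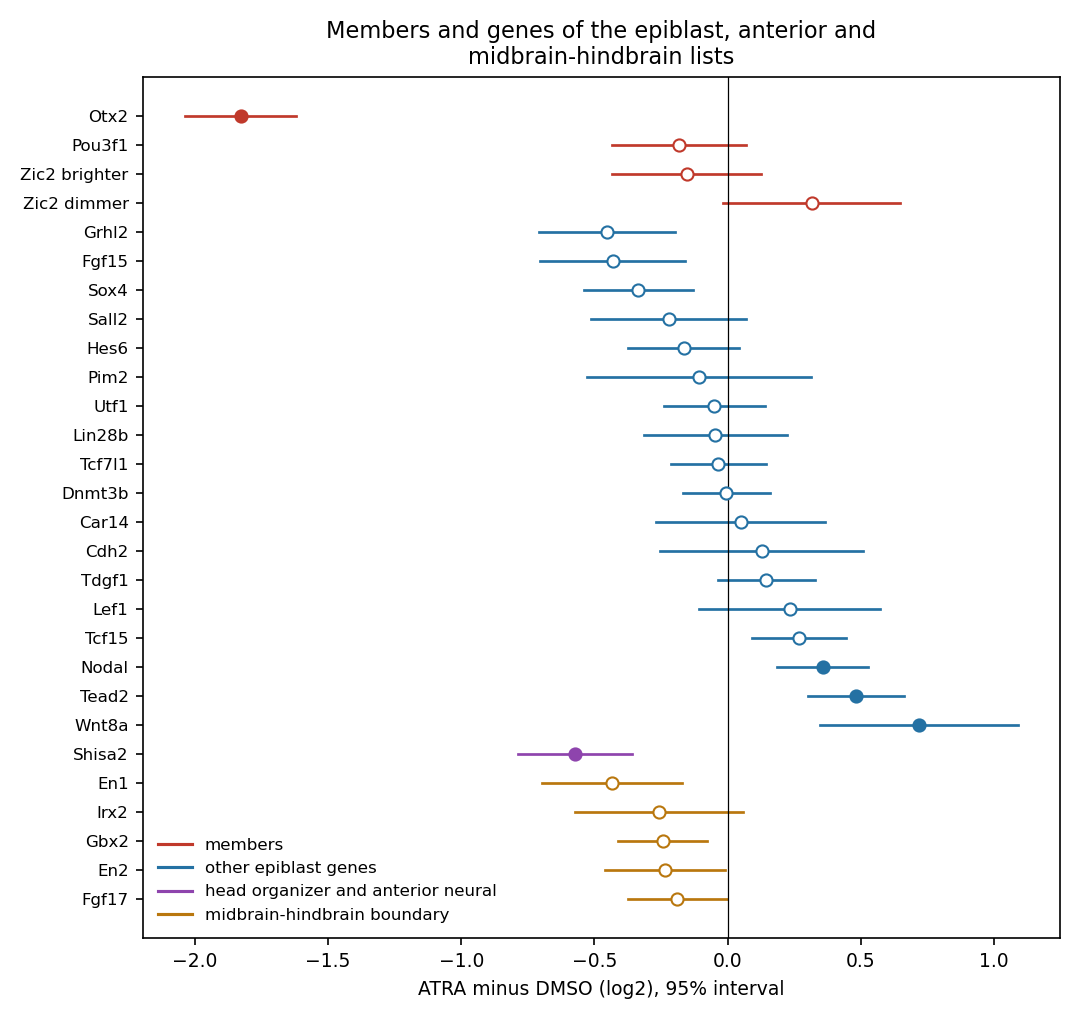
Change with its 95% interval, ATRA minus DMSO on the log2 scale (x axis), for the 4 kept member probes and the kept genes of the epiblast, anterior and midbrain-hindbrain lists, each gene by its brightest probe. Filled points were past the limma threshold: Otx2 at -1.83 stands apart from the whole set, whose next lowest value is Shisa2 at -0.57.

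Close relatives of the members were mostly undetected. Of 10 family members, 8 had a named probe and Fgf4 alone was kept, at 0.03 on the log2 scale (95% interval -0.24 to 0.30; limma adjusted p = 0.963). Crx, the third OTX gene of the mouse, was undetected on all 4 arrays, as were Zic1, Zic5, Pou3f3, Pou3f4 and Fgf6, and no probe of Zic4, of 5, was detected on more than 1 array.

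Naive pluripotency genes, which mark the state before the epiblast factors come on, gave 14 kept genes, of which 0 rose and 2 fell, with a median of -0.02, beside the 1.82% of all genes that passed. Zfp42 was at 11.99 ± 0.08 with ATRA and 12.39 ± 0.01 with DMSO (log2 means, n = 2) and fell by 0.40 on the log2 scale (limma adjusted p = 0.00406). Klf5, a Kruppel-like factor, fell by 0.34 (adjusted p = 0.0408). Both had adjusted p over 0.05 without ATRA replicate 1 (0.153 for Zfp42 at -0.34, 0.581 for Klf5 at -0.26) and without the intensity trend (0.208 and 0.357), as had Klf5 without DMSO replicate 1 (0.130 at -0.24). Tbx3 and Nanog were higher by 0.29 and 0.20, and the nuclear receptor gene Nr5a2 was at -0.22 (adjusted p = 0.104, 0.251 and 0.281). A dimmer probe of Tbx3 rose by 0.36 (adjusted p = 0.0297), and Tbx3 passed by its brightest probe without DMSO replicate 1 (0.35, adjusted p = 0.0139).

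The labelled cell type was checked against its markers. All 8 stem cell markers were detected on every array, and their summed intensity was 35986 and 36499 on the ATRA arrays, against 36092 and 37440 on the DMSO arrays. Of these, Zfp42 fell, as above, and Sox2 fell by 0.39 (limma adjusted p = 0.0190, and 0.2 without the intensity trend). Without ATRA replicates 1 and 2 Sox2 was at -0.40 and -0.39, and it did not pass the threshold in either case. The dimmer Sox2 probe was at -0.23 with overlapping groups (adjusted p = 0.506). Pou5f1 was at 0.04 on the log2 scale (adjusted p = 0.925). Of 8 fibroblast markers, which would show feeder cells, 4 were kept with summed intensities of 529 and 496 with ATRA and 519 and 513 with DMSO, and Col1a2, Postn, Lum and Dcn were undetected throughout. Of 6 primitive endoderm markers 3 were kept, with summed intensities of 387 and 383 with ATRA and 374 and 376 with DMSO. Gata6, detected on both ATRA arrays and 1 DMSO array, rose 1.68-fold (adjusted p = 0.0266; 0.622 at 0.53 without ATRA replicate 1 and 0.0823 at 0.58 without DMSO replicate 1). Dab2 was at -0.27 and its dimmer probe at -0.28 (adjusted p = 0.462 and 0.381), Sox7 was at 0.12 (adjusted p = 0.856), and Sox17 and Pdgfra were undetected. Of 7 neural markers 3 were kept, at 423 and 443 with ATRA and 418 and 398 with DMSO, and Sox1, Pax6, Neurog2 and Dcx were undetected. Map2 and Nes were at 0.36 and 0.23 (adjusted p = 0.193 and 0.516), while Tubb3 was undetected with ATRA and at least 1.16-fold lower (adjusted p = 0.529). The endoderm and neural sums were thus higher on both ATRA arrays while their members went both ways, and their part in the fall of Otx2 was not tested. All these sums are of deposited intensities with no background taken off. The median probe stood at about 100 on each array, so much of the fibroblast, endoderm and neural sums is background.

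The genes most like Otx2 over the 4 arrays were found by the Euclidean distance between log2 values centred on each gene's own mean. The 5 nearest were Id2, an inhibitor of basic helix-loop-helix factors (distance 0.93), Sox21, a relative of Sox2 (1.10), the zinc finger gene Zbtb46 (1.16), Sp5, a target of WNT signalling (1.19), and the homeobox gene Evx1 (1.19). For scale, the centred profile of Otx2 itself has a length of 1.83. Their changes of -0.91, -0.73, -0.70, -0.64 and -0.66 were all smaller than 1 on the log2 scale as measured with the offset of 16. In the authors' other table Id2 and Evx1 were at -1.06 and -1.01. Zbtb46 was undetected on both ATRA arrays, so its full fall could not be measured. Id2 had values of 6.35 and 6.42 with ATRA, against 7.29 and 7.31 with DMSO, while of its 2 dimmer probes 1 was at -0.47 and the other, undetected with ATRA, was at least 1.09-fold lower. These genes were picked for their likeness, so no test is given for them.

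**Figure D4:**
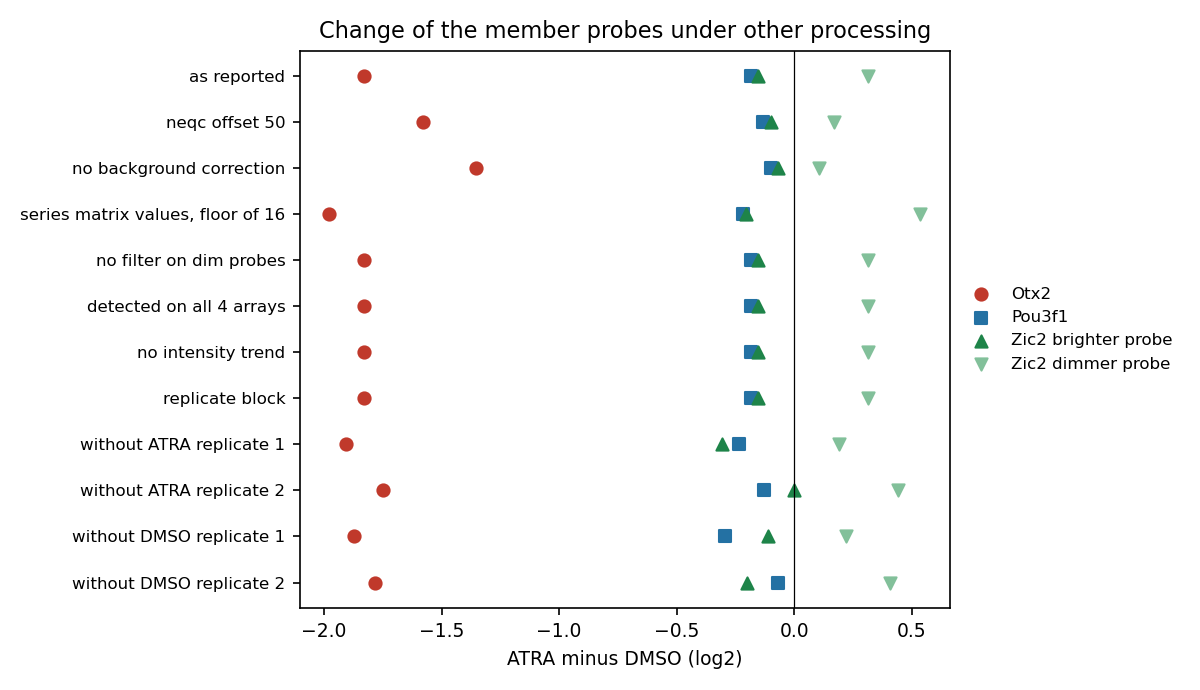
Change of the 4 kept member probes, ATRA minus DMSO on the log2 scale (x axis), as reported and under the 11 other settings (y axis). Otx2 stays between -1.98 and -1.35, Pou3f1 between -0.29 and -0.07, and the brighter and dimmer Zic2 probes stay on or near opposite sides of 0.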

How the data were processed

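GenomeStudio is named in the submitters' processing notes; its version and further steps are not given in the sources used here. The authors deposited a linear intensity for each of 45281 probes and a detection p-value, named as such per the file headers. The sorted intensities were equal between arrays to within 0.228, so the deposited intensities had already been quantile normalized, and a shift shared by most probes cannot be seen. The authors' deposited series matrix holds the same intensities less a constant of 93.5.

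With limma 3.58.1 in R 4.3.3, neqc estimated the background through the detection p-values, subtracted it by normexp with an offset of 16, and returned quantile normalized log2 values, so changes of dim probes are understated. The 19112 probes with detection p under 0.05 on at least 2 arrays were fitted with lmFit and eBayes with an intensity trend (group as the only term), with Benjamini-Hochberg adjustment over all of them. A gene is given by its brightest kept probe. Probes were named from the platform annotation (34885 with 1 symbol), of which 34807 were matched to RefSeq by gene identifier. The fit was tested on simulated data. The number of arrays, 2 in each group, limits the precision.

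The members and lists were chosen with earlier results of these data known. Named are all members, the 5 genes nearest to Otx2, Cyp26a1, every list gene past the threshold and the 3 largest changes among the rest of each list; other genes named with a value were chosen after their values were seen. Same-numbered replicates did not deviate together (r = -0.003 across probes). Alternatives were another offset, no background correction, the series matrix, other filters, no trend, a replicate block and each array left out.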

Additional observations from a re-analysis of the deposited data

How the results depend on the processing

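The change of Otx2 kept its sign and the lowest rank among the fitted probes under the 11 other settings; it was -1.58 with an offset of 50, -1.35 without background correction and -1.98 with the series matrix values and a floor of 16, and -1.91 to -1.75 with 1 array left out. The other member probes gave 0 calls under each setting run, while the dimmer Zic2 probe was at 0.11 without background correction and 0.54 with the series matrix values. Probes past the threshold numbered 302 as reported, 50 with the series matrix values (893 kept probes at the floor on all 4 arrays were left out), 74 without the intensity trend, and 133 to 956 with 1 array left out. With a replicate block it was 492, with 5 epiblast genes past the threshold. The labels do not say whether the replicate numbers pair the samples. The epiblast list had 0 genes past the threshold with the series matrix values, 0 without the intensity trend and 0 to 4 with 1 array left out. The anterior list had 0 with the series matrix values, 0 without the trend and 0 to 1 with 1 array left out. The causes of these differences were not tested. The share of calls that were lower was 20.5% as reported, 4% with the series matrix values, 5.41% without the trend, 31.1% with the block and 14.3% to 38.1% with 1 array left out. With 1 array left out Fgf4 ran from -0.072 to 0.14 and Meis1 from -0.014 to 0.31, so that both changed sign. Of 297 values of 28 other named genes under these settings, 238 kept direction and side of the threshold, 48 lost the threshold and 8 gained it. Signal near background limits Otx1 and Fgf5, whose changes could not be measured.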
